A study of Mus musculus with 6 samples.

Results

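The chemokine ligand genes were examined in primary myoblasts, the cultured progenitors of skeletal muscle, from mice labelled as WT or as knockout for eIF5A, a translation factor. The group was chosen by gene symbol: protein-coding genes of the count table named Ccl or Cxcl with a number, Cx3cl1, Xcl1, Pf4 or Ppbp. This gave 46 of the 54532 genes in the table, under 40 symbols, with 7 of them on unplaced scaffolds as copies of Ccl19, Ccl21 and Ccl27 genes. Cxcl11 is listed as a polymorphic pseudogene and was therefore not included (0 to 5 counts per library). Of the 46 genes, 12 had no read in any library, 10 had reads but stayed below the expression filter, and 24 were tested.

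Each genotype had 3 libraries of bulk RNA, which the labels number as replicates 1 to 3 without saying whether they came from separate animals, so that the p-values measure the spread between these libraries. Cells were freed from hind-limb muscle of 3-week-old mice with dispase and collagenase, passed through a strainer without sorting, and cultured for 2 days in medium with 10% FBS and FGF. The dose of FGF is 10 ug/ml on the labels, a unit that could not be checked here. The eIF5A-KO mice are described as Pax7CreERT2/+ with both eIF5A alleles floxed and were induced with tamoxifen, so that deletion is directed to Pax7+ satellite cells and not to the other cells of such a culture. The WT animals are described as littermates. The study gives the genotype of WT controls as Pax7CreERT2/+ in one place and as Pax7+/+ with floxed eIF5A alleles in another, and which of these holds for the sequenced animals could not be settled. The libraries held 16281216 to 17734551 gene counts each, of which the mitochondrial genome gave 5.75% for WT replicate 1 and 2.11% to 3.50% for the remaining ones. The targeted gene, Eif5a, had levels of 1603, 986 and 1238 CPM in WT and 1364, 1459 and 1059 CPM under the knockout label (log2 fold change 0.02, adjusted p = 0.993 in edgeR). Its mRNA thus showed no detectable loss under the knockout label, and groups are named by label throughout. The study measured its knockout in satellite cells of older mice by RT-PCR and immunostaining, and reports it as successful. CPM here is the read count scaled by library size and TMM factor. The myoblast genes Myod1, Des and Pax7 were detected in every library, but so were markers of endothelial cells, mural cells, fibroblasts and macrophages.

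Chemokines are small secreted proteins that guide leukocytes along concentration gradients through G protein-coupled receptors. CXC ligands with an ELR motif attract neutrophils through CXCR2, CCL2 and its relatives attract monocytes through CCR2, and CXCL9 and CXCL10 attract T cells through CXCR3. In injured muscle they recruit neutrophils and then macrophages, whose products in turn act on satellite cells. Many of their genes lie side by side in clusters and are switched on by NF-kB and interferon signals.

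Chemokine mRNA in these cultures came mainly from a few genes, and the groups overlapped for every tested gene except Ccl25. The counts of 6 genes (Cxcl5, Cxcl1, Ccl2, Cxcl12, Cxcl2 and Ccl7), each above 100 CPM on average, made up 89.1% of all chemokine ligand reads, and Cxcl5, Cxcl1 and Ccl2 alone 71.7%. The summed ligand level was 4090, 2439 and 2574 CPM in WT replicates 1 to 3 and 2820, 3131 and 3559 CPM in replicates 1 to 3 labelled eIF5A-KO. WT replicate 1 was the highest of the 6 libraries and WT replicates 2 and 3 the lowest, so that the groups overlapped. The means were 3034 ± 917 CPM in WT and 3170 ± 371 CPM in the other group (SD, n = 3), a ratio of 1.04. Without WT replicate 1 the log2 ratio of the sums was 0.35, and without WT replicate 2 it was -0.07.

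**Figure D1:**
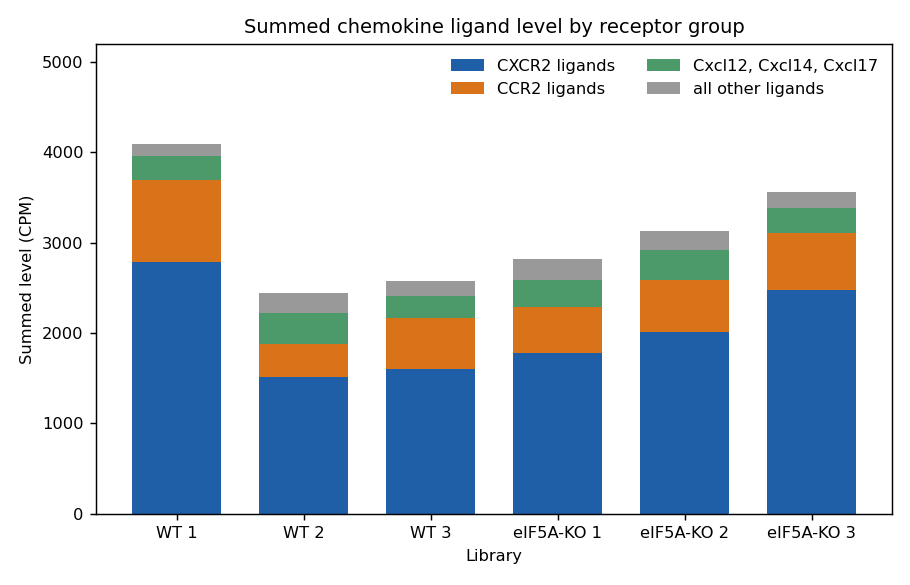
Summed level of all 46 chemokine ligand genes (CPM) in each of the 6 libraries, split by the receptor group of the ligands; bars start at 0. WT replicate 1 reached 4090 CPM and the other 5 libraries lay between 2439 and 3559 CPM, with CXCR2 ligands the largest portion of every bar.

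None of the 24 tested genes passed an adjusted p of 0.05 in edgeR's quasi-likelihood test, where 0.0204% of all 14679 tested genes did, and the lowest adjusted p among them was 0.82. At an unadjusted p under 0.05 the count was 0 higher and 0 lower, against 2.74% of all tested genes higher and 4.02% lower. DESeq2, limma-voom and limma on log2 FPKM gave 0 genes by both measures as well. The log2 fold change was above 0 for 16 genes and below 0 for 8, that is 66.7% above 0 against 48.3% of all tested genes, with a median of 0.24 against -0.01. The estimates ran from -0.40 for Ccl12 to 0.85 for Cxcl10, and every one of the 24 intervals contained 0. The counts depended on single libraries. Without WT replicate 1, the library with the highest mitochondrial share, 4 genes were higher at an unadjusted p under 0.05 (Cxcl1, Cxcl2, Ccl11 and Cxcl14), as were 4.72% of all genes, and their adjusted p ran from 0.341 to 0.452 in edgeR. Leaving out WT replicate 2 gave 1 such gene (Ccl4, against 3.97% of all genes), leaving out replicate 2 labelled eIF5A-KO another (Cxcl10, 1.78%) and leaving out replicate 3 labelled eIF5A-KO another (Ccl6, 3.65%), none with an adjusted p under 0.05. The median of 0.24 became 0.06, 0.14 and 0.16 without replicate 1, 2 or 3 labelled eIF5A-KO. With no filter on low counts, 34 members were tested and 4 were higher and 2 lower at an unadjusted p under 0.05, against 2.51% and 3.81% of all genes, the lowest adjusted p being 0.11 for Cxcl10.

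Markers of other cell types were read beside these values. The 9 mural cell markers summed to 425, 781 and 614 CPM in WT and 874, 817 and 940 CPM in the libraries labelled eIF5A-KO, without overlap, and Pdgfrb, Mcam and Notch3 were the most abundant of them. Of the 9, 4 were higher at an unadjusted p under 0.05 in edgeR and 4 were higher without overlap. Among all tested genes 2.74% were higher at that p and 12.5% did not overlap in either direction. Myh11 was the only mural marker with an adjusted p under 0.05 (0.0486 in edgeR). It did not keep this with DESeq2 size factors in edgeR, library size alone or limma-voom, where 0 of all tested genes passed. The 10 myoblast markers summed to 755, 1933 and 1344 CPM against 1253, 907 and 699 CPM, with overlap and with 9 of 10 estimates below 0. Of these 10, 3 were lower at an unadjusted p under 0.05 in edgeR, against 4.02% of all tested genes, and 2 were lower without overlap. Endothelial markers had 10 of 10 estimates above 0, macrophage markers 11 of 14, mast cell markers 0 of 5 and neutrophil markers 0 of 5, where 48.3% of all tested genes were above 0. Their sums overlapped between the groups, but 3 of the 5 mast cell markers were lower without overlap and at an unadjusted p under 0.05, against 4.02% of all tested genes lower at that p. Fibroblast markers summed to 3740, 2906 and 3035 CPM against 2904, 3441 and 2950 CPM, also with overlap. In bulk RNA, fewer cells of a type and less RNA per cell cannot be told apart, and the part of these cells in the ligand levels was not tested.

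The precision varied with the gene. For 9 genes, among them Cxcl5, Cxcl1, Ccl2, Cxcl12, Cxcl2 and Ccl7, the 95% confidence interval lay within a 2-fold change in either direction. For the other 15 it reached 2-fold or more on at least 1 side, so that a change of that size was not excluded. For 20 of the 24 genes the fold range among the libraries of each group exceeded the fold between the group means. The exceptions were Ccl11, Cxcl10, Ccl25 and Ccl5, where the fold between the means exceeded the range of at least 1 group. The only gene whose libraries did not overlap between the groups was Ccl25, 1 of 24 against 12.5% of all tested genes.

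**Figure D2:**
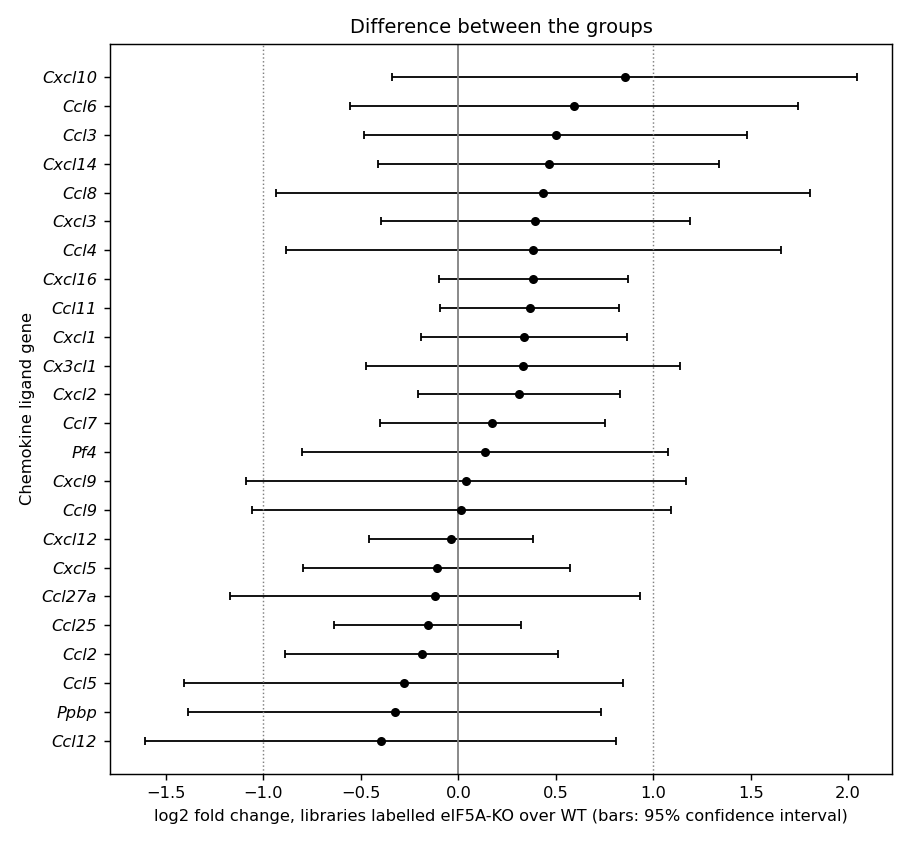
Log2 fold change of each tested chemokine ligand gene, libraries labelled eIF5A-KO over WT, with its 95% confidence interval from edgeR (3 libraries per group); dotted lines mark a 2-fold change. Estimates ran from -0.40 (Ccl12) to 0.85 (Cxcl10) and all 24 intervals crossed 0.

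The CXCR2 ligands were the most abundant class. Cxcl5, the ligand known as LIX in mice, lies on chromosome 5 from 90759360 to 90761624 in mm10. Its level was 1755, 871 and 892 CPM in the WT libraries and 826, 1161 and 1268 CPM in those labelled eIF5A-KO. The highest value was that of WT replicate 1 and the lowest that of replicate 1 labelled eIF5A-KO, with the other 4 in between. The estimate on the log2 scale was -0.11 (95% interval -0.80 to 0.57, adjusted p = 0.976 in edgeR), and it was 0.31 without WT replicate 1. Cxcl5 made up 42.9% of the chemokine ligand reads in WT replicate 1 and 29.3% to 37.1% in the others. Per gene length it was the highest chemokine gene in both groups, at 622 ± 265 FPKM in WT and 579 ± 124 FPKM in the other group (SD, n = 3), which placed it 58th and 68th among all genes. Its transcripts share a short near-identical stretch each with Dock3 and Mlh3.

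Cxcl1 (KC), Cxcl2 (MIP-2) and Cxcl3 are close relatives within the same stretch of chromosome 5, where 7 ligand genes lie between 90759360 and 90905938 in the order Cxcl5, Ppbp, Pf4, Cxcl3, Cxcl15, Cxcl1 and Cxcl2. Cxcl1 was at 763, 460.2 and 534 CPM in WT and 693, 643 and 879 CPM in the libraries labelled eIF5A-KO (log2 fold change 0.34, interval -0.19 to 0.86, unadjusted p = 0.186, adjusted p = 0.881 in edgeR). Cxcl2 was at 176, 112 and 120.4 CPM against 201, 133 and 173 CPM (log2 fold change 0.31, interval -0.21 to 0.83). For both, WT replicates 2 and 3 were the lowest libraries, while WT replicate 1 fell among those labelled eIF5A-KO. Cxcl3 was at 95.4, 66.8 and 59.9 CPM against 62.2, 70.0 and 159.8 CPM, and only replicate 3 labelled eIF5A-KO stood above the WT range. Without that library its log2 fold change of 0.40 became -0.16. Transcripts of Cxcl2 and Cxcl3 share a stretch of 116 bases at 98.3% identity, so that reads from it could be split between them. The other members of the stretch were rare: Ppbp, a platelet chemokine precursor, was at 1.42, 2.76 and 1.00 CPM in WT and 0.979, 1.12 and 2.04 CPM in the other group, and Cxcl15 (lungkine) had 2 reads in WT replicate 2 and none elsewhere.

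**Figure D3:**
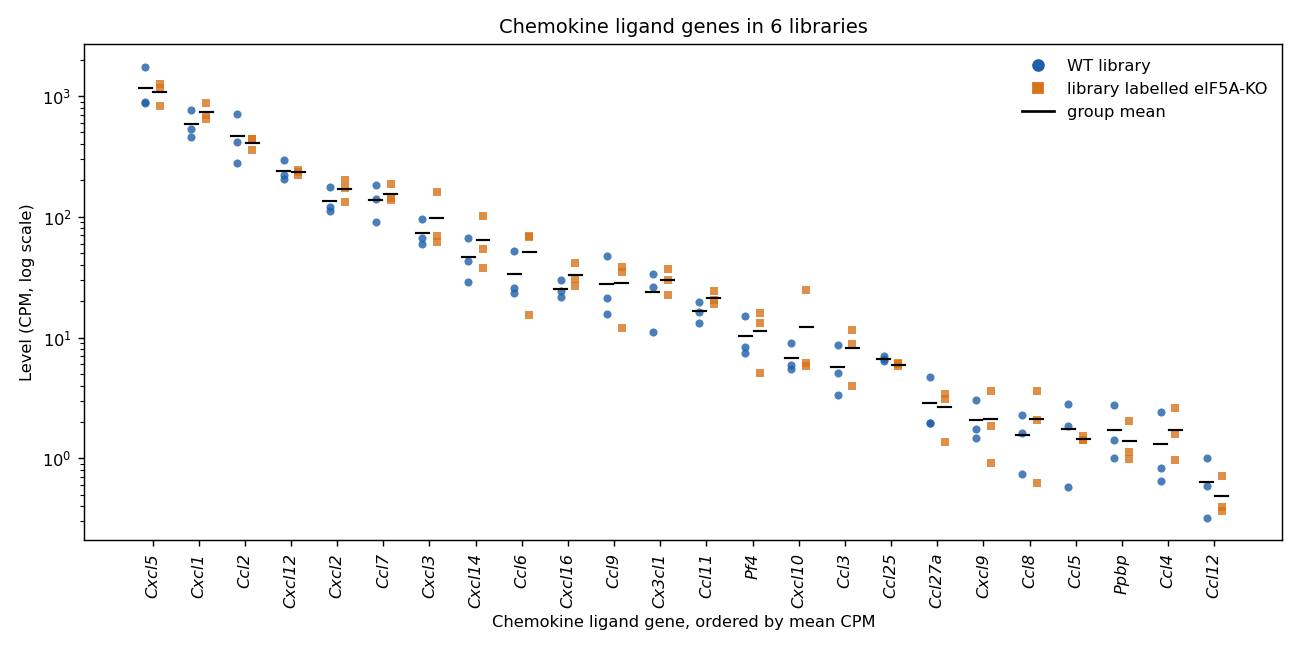
Level of the 24 tested chemokine ligand genes (CPM, log scale) in each library, ordered by mean level; circles are WT libraries, squares libraries labelled eIF5A-KO, and black lines the group means (n = 3). From Cxcl5, up to 1755 CPM, to Ccl12, at most 1.01 CPM, the libraries of the 2 groups overlap for every gene except Ccl25.

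The sequences before the annotated starts of Cxcl1, Cxcl2 and Cxcl3 are shown because these 3 abundant relatives share a NF-kB motif there; they were chosen after their values were seen. Cxcl10 is added as one of the 3 tested members with the lowest unadjusted p, a rule that also named Cxcl16 and Ccl11. The sequences are those of RefSeq on GRCm38.p6, 250 bases ending at the base before the start, for Cxcl1 chr5:90890995-90891244, Cxcl2 chr5:90903649-90903898 and Cxcl3 chr5:90785851-90786100 on the plus strand, and for Cxcl10 chr5:92348890-92349139 on the minus strand. Of the 24 tested genes, 17 matched this table, with 20 promoter entries, and Cxcl5, Ccl2, Ccl7, Cxcl16, Ccl11, Ccl5 and Ccl4 did not. Capitals mark matches to the NF-kB (kB) consensus, to GAAANNGAA, the core of interferon response elements, to TGANTCA, the AP-1 site, and to TATAAA, the TATA box, on either strand.

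Cxcl1: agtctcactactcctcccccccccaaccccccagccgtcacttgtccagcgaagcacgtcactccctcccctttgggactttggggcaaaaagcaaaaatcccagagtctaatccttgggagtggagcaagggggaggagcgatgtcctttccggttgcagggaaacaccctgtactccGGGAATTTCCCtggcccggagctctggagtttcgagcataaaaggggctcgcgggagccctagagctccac
Cxcl2: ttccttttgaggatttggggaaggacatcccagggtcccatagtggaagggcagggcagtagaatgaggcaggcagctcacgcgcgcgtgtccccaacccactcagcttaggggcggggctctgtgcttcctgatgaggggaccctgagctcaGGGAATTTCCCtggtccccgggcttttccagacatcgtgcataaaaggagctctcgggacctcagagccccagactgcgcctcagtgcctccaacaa
Cxcl3: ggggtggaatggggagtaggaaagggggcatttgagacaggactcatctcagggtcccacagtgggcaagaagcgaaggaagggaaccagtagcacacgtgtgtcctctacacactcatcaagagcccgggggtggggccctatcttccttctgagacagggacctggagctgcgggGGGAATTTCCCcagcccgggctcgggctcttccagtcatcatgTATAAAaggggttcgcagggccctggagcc
Cxcl10: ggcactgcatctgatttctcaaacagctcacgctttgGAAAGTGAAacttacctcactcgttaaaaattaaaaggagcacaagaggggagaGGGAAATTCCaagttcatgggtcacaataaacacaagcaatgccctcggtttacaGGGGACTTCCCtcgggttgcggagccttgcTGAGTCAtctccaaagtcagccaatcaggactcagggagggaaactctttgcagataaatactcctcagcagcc

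Cxcl1, Cxcl2 and Cxcl3 hold the same run of 11 bases, GGGAATTTCCC, which begins 71, 97 and 73 bases before the RefSeq start. RefSeq starts can differ from those of the count table, which begins Cxcl1 at 90891241 and Cxcl2 at 90903871, both inside the windows shown. It matches the kB consensus on each strand, in overlapping windows. This run occurs in 14 of all 32851 promoters of the table (0.0426%), and among the tested members in these 3. It was read from their sequences, which were shown for sharing it, so that their holding it was fixed by the choice. The kB consensus as such was found in 5 of these 20 entries (Ccl9, Cxcl1, Cxcl2, Cxcl3 and Cxcl10), against 7.25% of all promoters. Cxcl10 holds kB matches that begin 159, 104 and 103 bases before its start, the last 2 overlapping, besides a GAAANNGAA at 213 bases and a TGANTCA at 74 bases. GAAANNGAA was found in 4 of the 20 (Ccl3, Cxcl9, Cxcl10 and Cxcl14, 7.13% of all promoters), TGANTCA in 4 (Ccl9, Ccl27a, Cxcl10 and Ppbp, 6.75%) and TATAAA in 8 (12.4%). A match describes the letters in this window and not a bound site.

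**Figure D4:**
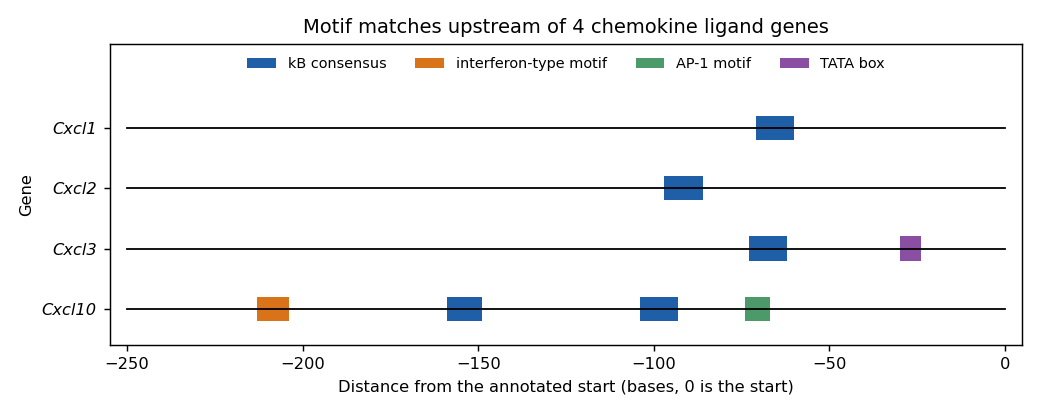
Positions of motif matches in the 250 bases before the annotated start of Cxcl1, Cxcl2, Cxcl3 and Cxcl10 (x axis, bases from the start; boxes are drawn to scale). The shared kB run begins 71, 97 and 73 bases before the starts of Cxcl1, Cxcl2 and Cxcl3.

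The monocyte attractants came second. Ccl2 (MCP-1), the main ligand of CCR2, lies on chromosome 11 from 82035571 to 82037453. It was at 716, 278 and 412 CPM in WT and at 358, 439 and 437 CPM in the libraries labelled eIF5A-KO. WT replicate 1 was again the highest and WT replicate 2 the lowest, and the 3 libraries of the other group lay between them. The log2 fold change was -0.19 (interval -0.89 to 0.51, adjusted p = 0.96 in edgeR), and 0.26 without WT replicate 1. Ccl7 (MCP-3), its neighbour, was at 182, 91.1 and 141 CPM in WT and 137, 143 and 187 CPM in the other group, with a log2 fold change of 0.17. Per gene length Ccl2 was at 407 ± 194 FPKM in WT and 359 ± 41.1 FPKM in the other group, and Ccl7 was at 170.3 ± 55.9 and 193 ± 34.3 FPKM (SD, n = 3). In WT the order was Cxcl5, Ccl2 and Cxcl1 (309 ± 82.0 FPKM), each above the next by less than its own SD, and then Ccl7, which lay below Cxcl1 by more than either SD. In the libraries labelled eIF5A-KO, Cxcl1 (392 ± 66.6 FPKM) came before Ccl2, again within their SDs, and Cxcl5 lay above both by more than its SD.

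Along the cluster of chromosome 11 from 82035571 to 82305690 the genes follow as Ccl2, Ccl7, Ccl11, Ccl12, Ccl8 and Ccl1, and the mean WT level was 407, 170.3, 15.02, 1.18 and 3.01 FPKM for the first 5 and 0 for Ccl1. Ccl11 (eotaxin-1), which attracts eosinophils through CCR3, was at 19.6, 13.3 and 16.4 CPM in WT and 19.0, 20.3 and 24.1 CPM in the libraries labelled eIF5A-KO. Of those libraries only replicate 1 fell below a WT library, WT replicate 1. Its log2 fold change was 0.37 (interval -0.10 to 0.83, unadjusted p = 0.107, adjusted p = 0.82 in edgeR). Ccl8 (MCP-2), at 1.62, 0.742 and 2.30 CPM in WT and 3.61, 2.07 and 0.624 CPM in the other group, was lowest and highest within the latter. Ccl12 (MCP-5) was the least abundant tested member, at 0.323, 1.01 and 0.591 CPM against 0.367, 0.710 and 0.397 CPM. Of the other eosinophil attractants, Ccl24 had 29 reads in all and Ccl26 none.

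Of the stromal ligands, Cxcl12 varied little between libraries and Cxcl14 more. Cxcl12 (SDF-1), which holds CXCR4-bearing cells in bone marrow and other stroma, was at 205, 296 and 222 CPM in WT and at 246, 221 and 236 CPM in the libraries labelled eIF5A-KO. Its 3 libraries labelled eIF5A-KO lay inside the WT range, and its log2 fold change of -0.04 had the narrowest standard error of all members, 0.19 (interval -0.46 to 0.38). Cxcl14, expressed by fibroblasts and epithelia, was at 67.3, 43.1 and 29.1 CPM against 53.8, 101 and 37.6 CPM, and replicate 2 labelled eIF5A-KO alone exceeded WT replicate 1. Without that library its log2 fold change of 0.46 became -0.01. Cxcl17 had 1 read in replicate 2 and 8 in replicate 3 labelled eIF5A-KO and none in WT.

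The 2 ligands made as transmembrane proteins were Cxcl16, the ligand of CXCR6 and a scavenger receptor, and Cx3cl1 (fractalkine), the ligand of CX3CR1. Cxcl16 was at 21.5, 24.3 and 29.8 CPM in WT and at 30.8, 26.9 and 41.1 CPM in the libraries labelled eIF5A-KO, where replicate 2 alone fell within the WT range. Its log2 fold change was 0.38 (interval -0.10 to 0.87, unadjusted p = 0.107, adjusted p = 0.82 in edgeR). Exons of Cxcl16 overlap those of Zmynd15 on the opposite strand over 552 bases, and the counting was not stated to use strand, so reads of the pair cannot be told apart there (Zmynd15 was at 2.20 to 4.93 CPM). Cx3cl1 was at 11.2, 33.5 and 26.3 CPM in WT and at 30.2, 22.5 and 36.7 CPM in the other group. WT replicate 1 was the lowest, as it was for the summed markers of endothelial cells (1365 CPM there and 2505 to 3779 CPM in the other 5 libraries), a cell type known to make Cx3cl1. The part of these cells in the result was not tested.

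Of the interferon-induced CXCR3 ligands, Cxcl10 (IP-10) had the largest estimate of all members. It was at 5.95, 5.52 and 8.98 CPM in WT and at 6.12, 5.86 and 24.9 CPM in the libraries labelled eIF5A-KO. Replicate 3 labelled eIF5A-KO stood far above the other 5 libraries, and the other 2 of its group lay within the WT range. The log2 fold change of 0.85 (interval -0.34 to 2.04, unadjusted p = 0.141, adjusted p = 0.863 in edgeR) became -0.18 without that library. Cxcl9, its neighbour on chromosome 5, was at 1.74, 1.48 and 3.01 CPM in WT and 0.918, 1.84 and 3.63 CPM in the other group, and was also highest in that library. The interferon factor Irf7 had its highest value in the same library (217 CPM against 92.0 to 177 CPM), but none of 13 interferon signalling factors had an unadjusted p under 0.05. Cxcl10 shares 133 bases of exon with Art3 on the opposite strand, which was at 12.6 CPM in that library and at 6.58 to 9.59 CPM in the others.

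Some ligands shared their 3 highest libraries. Cxcl5, Ccl2, Ccl7, Cxcl3 and Ccl11 had theirs in WT replicate 1 and in replicates 2 and 3 labelled eIF5A-KO, as did 4.46% of all tested genes. Ccl6 and Ccl9, CCR1 ligands of myeloid cells, Ccl3 and Ccl4 (MIP-1 alpha and beta), inflammatory ligands of macrophages, and Pf4 (platelet factor 4) all had their 3 highest values in WT replicate 2 and in replicates 1 and 2 labelled eIF5A-KO. Of all tested genes, 5.15% had the same 3 highest libraries. Ccl6 was at 25.8, 52.1 and 23.2 CPM in WT and 69.6, 67.7 and 15.4 CPM in the libraries labelled eIF5A-KO, a fold range of 4.51 within the latter group. Its log2 fold change was 0.59 (interval -0.56 to 1.74, adjusted p = 0.913 in edgeR). Ccl9 was at 15.6, 46.9 and 21.4 CPM against 38.1, 35.0 and 12.0 CPM, with a log2 fold change of 0.02. Its transcripts share short near-identical stretches with many unrelated genes, so that some of its reads may be uncertain.

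Ccl3 was at 3.36, 8.70 and 5.08 CPM in WT and 11.5, 8.88 and 3.97 CPM in the other group. Pf4 was at 7.50, 15.1 and 8.39 CPM against 15.8, 13.3 and 5.05 CPM. Ccl4 was at 0.646, 2.44 and 0.827 CPM against 2.63, 1.60 and 0.964 CPM. Ccl6, Ccl9, Pf4, Ccl3 and Ccl4 were grouped by their 3 highest libraries, which by itself places replicate 3 labelled eIF5A-KO among the lower 3. The 16 macrophage markers summed to 73.8, 166 and 78.8 CPM in WT and 196, 153 and 73.4 CPM in the libraries labelled eIF5A-KO, with the same 3 libraries highest. Lyz2, Cd68 and Cd14 were the most abundant of them, Lyz2 at 23.6 to 75.0 CPM, while Aif1 had at most 0.159 CPM and none of the 16 was at 0 in every library. The platelet markers, which Pf4 could also follow, summed to 4.72, 5.36 and 5.32 CPM in WT and 6.79, 5.57 and 3.23 CPM in the other group, with Gp6 at 0. The same 3 libraries were thus the highest, though WT replicate 2 lay close to WT replicate 3. The part of macrophages and platelets in the levels of these ligands was not tested. Ccl5 (RANTES), which lies in the same cluster of chromosome 11 from 83525778 to 83664683, did not follow the pattern. It was at 0.582, 1.86 and 2.83 CPM in WT and 1.41, 1.42 and 1.53 CPM in the other group.

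**Figure D5:**
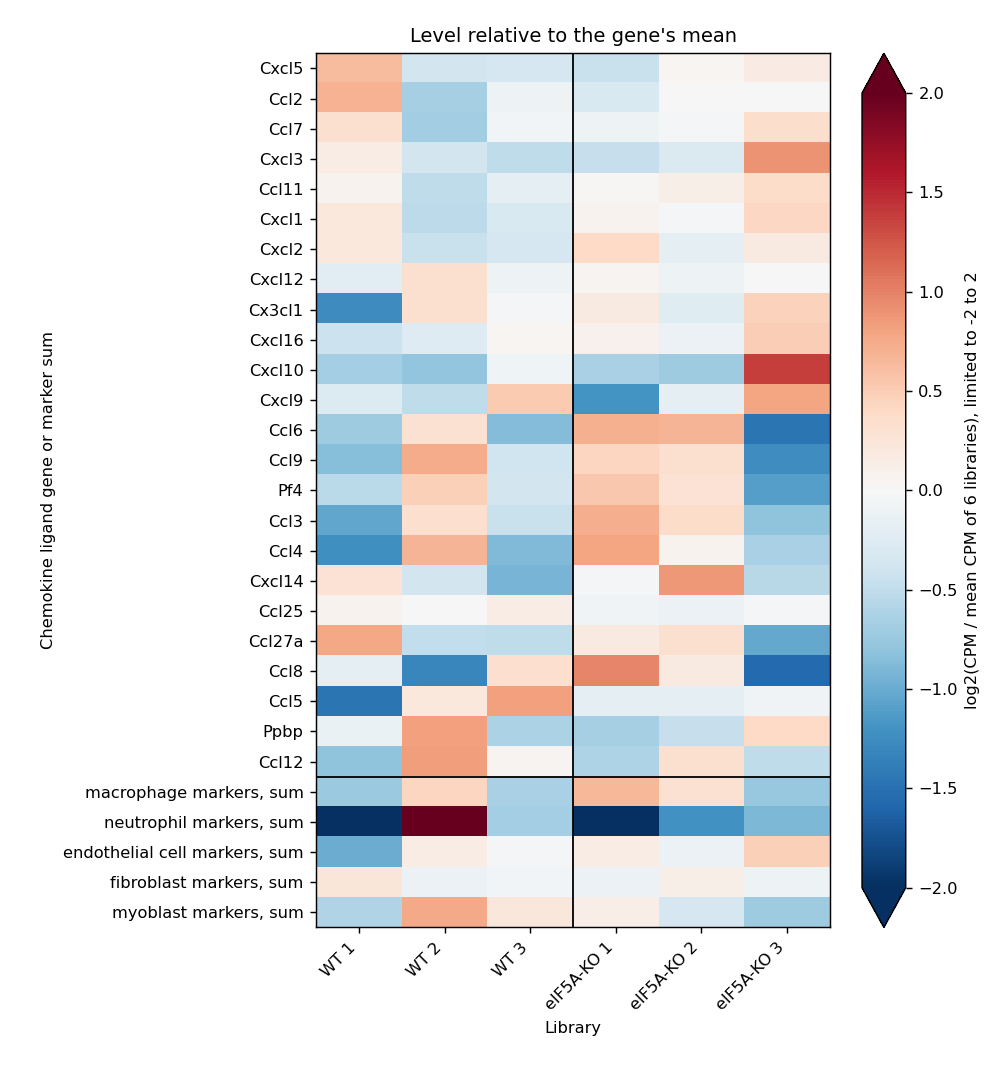
Level of each tested chemokine ligand gene, and of the summed markers of 5 cell types, in each library as log2 of CPM over the mean of the 6 libraries; colours are limited to -2 and 2. Genes from Cxcl5 down to Ccl4 are grouped by the libraries in which they are high, and the genes below them follow by mean level. Ccl6, Ccl9, Pf4, Ccl3 and Ccl4 are highest in WT replicate 2 and replicates 1 and 2 labelled eIF5A-KO, as is the macrophage marker sum (153 to 196 CPM there, 73.4 to 78.8 CPM elsewhere).

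Markers of neutrophils, cells that respond to the CXCR2 ligands, were found mainly in a single library. The 10 neutrophil markers summed to 92.5 CPM in WT replicate 2 and to 2.02 to 13.9 CPM in the other 5, led by S100a9, S100a8 and Elane there, with S100a9 at 26.7 CPM and Ly6g at no more than 0.159 CPM. The CXCR2 ligands together were lowest in that same library (1513 CPM) and 1607 to 2791 CPM elsewhere. Whether the ligands and the markers are linked was not tested. T and NK cell markers summed to 0.0592 to 0.371 CPM, with Cd3d, Cd3g, Gzmb and Ncr1 at 0 in every library, and B cell markers to 0.212 to 0.768 CPM.

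The homing ligands of lymphoid organs and epithelia were rare or not detected at this depth. Of 20 such genes, scaffold copies included, 2 were tested. Ccl25 (TECK), a thymus and gut chemokine, was at 6.66, 6.36 and 6.97 CPM in WT and 5.996, 5.80 and 6.12 CPM in the libraries labelled eIF5A-KO. Every library of the latter group lay below every WT library, by a log2 fold change of -0.16 (interval -0.64 to 0.32, unadjusted p = 0.48, adjusted p = 0.948 in edgeR). Exons of Ccl25 share 204 bases with those of Elavl1 on the opposite strand, an RNA-binding protein gene at 101 to 126 CPM, and which gene these reads came from cannot be told apart. Ccl27a (CTACK), a skin chemokine, was at 4.72, 1.96 and 1.95 CPM in WT and 3.12, 3.43 and 1.36 CPM in the other group. Its gene on chromosome 4 has near-identical copies, among them Ccl27b at 99.3% identity over 425 bases, so that its count is uncertain.

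Among the genes below the filter, none had more than 31 reads in a library. Ccl28 had 60 reads in all, Cxcl13 41, Ccl21a on an unplaced scaffold 40, Ccl22 38, Ccl24 29 and Ccl17 26. Cxcl13, a B cell attractant, had 24 of its reads and the Ccl21a copy 31 of its reads in WT replicate 3. The remaining 4 with any read had 9 (Cxcl17), 2 (Cxcl15), 1 (Ccl27a on a scaffold) and 1 (Ccl19). Ccl1, Ccl20, Ccl26, Xcl1, Ccl27b and 7 copies of Ccl19, Ccl21 and Ccl27 genes had none. A count of 0 allows a level of up to 0.159 to 0.194 CPM (3 counts), depending on the library. This limit covers counting error only, and reads shared by the identical Ccl21 and Ccl27 copies may have been left out of the counts.

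Few receptors for these ligands were expressed. Of 24 receptor genes, 6 were tested (Ackr1, Ackr3, Cxcr4, Ccr1, Ccrl2 and Ackr2), and Ccr2, Ccr8, Cxcr1 and Ccr1l1 had no read in any library. Cxcr2, the receptor of the abundant CXCR2 ligands, had at most 0.849 CPM, in WT replicate 2. Ackr1 (DARC), an endothelial receptor that binds many chemokines without signalling, was at 107, 60.1 and 95.8 CPM in WT and at 112, 118 and 166 CPM in the libraries labelled eIF5A-KO. The groups did not overlap, and the log2 fold change was 0.59 (unadjusted p = 0.0409, adjusted p = 0.706 in edgeR). Ackr3 (CXCR7), a scavenger of CXCL12, was at 72.8, 90.6 and 69.3 CPM against 60.4, 60.3 and 51.9 CPM, again without overlap (log2 fold change -0.43, unadjusted p = 0.0355, adjusted p = 0.683 in edgeR). Of the 6 tested receptors, 1 was thus higher and 1 lower at an unadjusted p under 0.05. Among all tested genes 2.74% were higher and 4.02% lower at that p, and 12.5% did not overlap. Cxcr4, the signalling receptor of CXCL12, was at 49.1 to 83.0 CPM and overlapped between the groups. Endothelial markers, led by Cdh5 and Pecam1 with 244 to 820 CPM, summed to 1365 to 3020 CPM in WT and 2505 to 3779 CPM in the libraries labelled eIF5A-KO, and their part in the level of Ackr1 was not tested.

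The upstream and processing genes were taken from lists drawn up by function. None of 21 NF-kB factors and regulators and none of 15 tested cytokines, cytokine receptors and Toll-like receptors had an unadjusted p under 0.05, with medians of 0.11 and 0.13. Nfkbia, the NF-kB inhibitor that NF-kB itself induces, was the most abundant of the former at 282, 307 and 342 CPM against 396, 330.4 and 395 CPM. Rela and Nfkb1, NF-kB subunits, were at 84.2 to 179 CPM and 109 to 167 CPM and overlapped. Of the 21, 2 (Nfkbib and Traf2) were higher without overlap, against 12.5% of all tested genes without overlap in either direction. Tnfrsf1a, the main TNF receptor, was at 261, 310 and 319 CPM in WT and 395, 389 and 331 CPM in the libraries labelled eIF5A-KO, without overlap, as for 12.5% of all tested genes (log2 fold change 0.32, unadjusted p = 0.0939, adjusted p = 0.815 in edgeR). Il1r1, the IL-1 receptor, lay between 62.4 and 121 CPM and Ifngr1, of the interferon gamma receptor, between 69.0 and 105 CPM, both with overlap. Of the interferon factors, Jak1 (239 to 317 CPM) and Socs3 (107 to 130 CPM) overlapped as well, and 1 of 13 (Irf2) was higher without overlap. Among 9 tested proteases that trim chemokines, Mmp2 and Mmp14, which cleave CCL7 and CXCL12 among other substrates, were higher at an unadjusted p under 0.05, as were 2.74% of all tested genes. Mmp2 was at 159, 199.9 and 185 CPM against 367, 285 and 207 CPM (log2 fold change 0.66, unadjusted p = 0.0169, adjusted p = 0.56 in edgeR). Mmp14 was at 270.0, 384 and 331 CPM in WT and at 461, 454 and 452 CPM in the libraries labelled eIF5A-KO (log2 fold change 0.47, unadjusted p = 0.0291, adjusted p = 0.644 in edgeR). For both, the groups did not overlap, as for 12.5% of all tested genes. Mmp3 (stromelysin-1), the most abundant of the list, was at 849, 280.0 and 293 CPM against 448, 502 and 313 CPM, with overlap and WT replicate 1 highest. Among 9 mRNA decay factors, Zc3h12a and Zfp36 were higher at an unadjusted p under 0.05, again against 2.74% of all. Zc3h12a (Regnase-1) was at 34.1, 47.7 and 44.5 against 75.4, 57.0 and 54.9 CPM (log2 fold change 0.57, unadjusted p = 0.0199, adjusted p = 0.577 in edgeR). Zfp36 (tristetraprolin) was at 97.8, 176 and 150.2 CPM against 289, 194 and 166 CPM, with overlap (log2 fold change 0.61, unadjusted p = 0.0493, adjusted p = 0.738 in edgeR). Both Regnase-1 and tristetraprolin destabilise cytokine and chemokine mRNAs. The more abundant Zfp36l2 (163 to 359 CPM) and Hnrnpd (177 to 274 CPM) overlapped between the groups. None of these genes passed the adjustment over all tested genes, the lowest adjusted p being 0.56.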

How the data were processed

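Bulk RNA-seq of 6 libraries was used, 3 from WT and 3 from eIF5A-KO primary myoblasts. The authors mapped reads to mm10 with HISAT and deposited raw read counts per gene. The methods name DEGSeq2 for the read coverage of each gene. HISAT's version, the annotation release, the strand setting and the counting rule for shared reads are not given in the sources used here. The authors also deposited FPKM values, which were used to compare levels between genes.

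Counts were tested with edgeR 4.0.16 in R 4.3.3 (filterByExpr, TMM factors, quasi-likelihood F test without covariates, Benjamini-Hochberg adjustment over 14679 genes). The scripts were tested on simulated data. Confidence intervals are at 95%. Every tested ligand gene was described, and from each pathway list the genes with an unadjusted p under 0.05 and the 3 most abundant; other genes named were chosen after their values were seen. The members and all lists were chosen with earlier results of these data known. Gene coordinates of all 46 members equalled those of GENCODE vM21. Overlapping exons were read from it, and shared stretches of at least 100 bases at 95% identity were found with blastn. Promoters were taken from RefSeq. The kB consensus is the decamer that NF-kB dimers bind.

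Alternatives were other scaling (DESeq2 size factors, library size), the filter dropped or set to 10 counts per library, the DESeq2 test (1.42.0), and limma 3.58.1 with voom weights or on log2 FPKM with a pseudocount of 1 or 0.1, a replicate block, and each library left out.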

Additional observations from a re-analysis of the deposited data

How the results depend on the processing

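No chemokine ligand gene had an adjusted p under 0.05 in any of the 15 alternatives, and the lowest adjusted p of any of them was 0.11 (Cxcl10 without the filter). Without the filter, 34 members were tested, 4 were higher (Cxcl10, Ccl6, Cxcl14, Cxcl17) and 2 lower (Cxcl13, the Ccl21a copy) at an unadjusted p under 0.05, and the median log2 fold change was 0.1094. With at least 10 counts in every library, 22 were tested and the median was 0.3211. With 1 library left out, the count of higher genes ranged from 0 to 4 (4 without WT replicate 1) and the median from 0.0607 (without replicate 1 labelled eIF5A-KO) to 0.2599.

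The estimates of 16 of the 24 genes changed sign in at least 1 alternative. Those of the other 8 kept their sign but moved when single libraries were left out, with log2 fold changes of 0.19 to 0.58 for Cxcl1, 0.17 to 0.55 for Cxcl2, 0.31 to 1.06 for Ccl6, 0.19 to 0.52 for Cxcl16, 0.0029 to 0.67 for Cx3cl1 (lowest without WT replicate 1), 0.23 to 0.52 for Ccl11, 0.17 to 0.94 for Ccl3 and -0.19 to -0.12 for Ccl25. For the 16, leaving out single libraries gave -0.28 to 0.31 for Cxcl5, -0.45 to 0.26 for Ccl2, -0.13 to 0.14 for Cxcl12, -0.0521 to 0.43 for Ccl7, -0.16 to 0.64 for Cxcl3, -0.013 to 0.84 for Cxcl14, -0.26 to 0.61 for Ccl9, -0.16 to 0.52 for Pf4, -0.18 to 1.19 for Cxcl10, -0.35 to 0.44 for Ccl27a, -0.59 to 0.40 for Cxcl9, -0.19 to 0.88 for Ccl8, -0.68 to 0.23 for Ccl5, -0.72 to 0.20 for Ppbp, -0.0337 to 1.22 for Ccl4 and -0.74 to 0.10 for Ccl12. Ccl9 was also below 0 with library size alone (-0.0621), limma-voom (-0.0047) and the replicate block (-0.0073), and Cxcl9 with limma-voom (-0.0923), limma on log2 FPKM (-0.0057 with a pseudocount of 1, -0.0742 with 0.1) and the replicate block (-0.0688). The causes were not tested.

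Libraries of the same number did not deviate together (correlations of 0.09, -0.20 and 0.11), so the numbers were not taken as pairs. With the replicate block the count of members with an adjusted p under 0.05 stayed 0 and their median was 0.25, while 24 genes of all had an adjusted p under 0.05 against 3 without it. The biological coefficient of variation over all genes was 0.239, with 3 libraries per group. How much counting error adds for ligands with few reads was not tested.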
